A study of Mus musculus with 15 samples.

Results

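A set of 38 genes that mark brain endothelial cells, the cells that line cerebral blood vessels, were followed in bulk RNA sequencing of mouse medial prefrontal cortex (mPFC). They were named by symbol as endothelial surface, receptor and transcription factor genes, and all 38 were found among the 27179 gene identifiers of the deposited count table. All 38 also passed the filter on low counts that left 16816 genes for testing. Every one is protein coding in the GRCm38 (mm10) annotation that gives the positions below, and each had at least 42 counts in every library.

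The 15 libraries came from mPFC of C57BL/6J mice that were labelled as ABX treated or not and as taken before or after fear extinction, the training in which a conditioned fear response declines. ABX commonly stands for an antibiotic cocktail, although the labels do not spell it out. There were 4 libraries of mice after extinction with ABX, 4 after extinction without ABX, 4 before extinction with ABX and 3 before extinction without ABX (replicates 1, 3 and 4). Depth per library was 45832528 to 48830512 counts in post-extinction ABX, 47863644 to 53892681 in post-extinction non-ABX, 44254906 to 55058397 in pre-extinction ABX and 49231174 to 57929503 in pre-extinction non-ABX. No genotype other than the strain, and no age or sex, is given in the sources used here, nor whether a library is 1 animal, so p-values measure the spread between libraries. The source is dissected tissue, while the library protocol speaks of sorted cells. Levels below are in CPM, counts divided by library size with TMM scaling factors, and differences are log2 fold changes of ABX over non-ABX or of post over pre extinction. In tissue RNA, fewer endothelial cells and less RNA per endothelial cell cannot be told apart.

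Endothelial cells of the brain are joined by continuous junctions and form, with pericytes and astrocyte endfeet, the blood-brain barrier. Vascular endothelial growth factor acts on them through the receptor tyrosine kinases Kdr and Flt1, and angiopoietins act through Tek, whose activity the phosphatase Ptprb restrains. Bone morphogenetic proteins of the blood signal through Acvrl1 with the coreceptor Eng. SOX factors of the F group (Sox7, Sox17 and Sox18) and ETS factors (Erg, Fli1 and Ets1) keep up endothelial gene expression, while Lef1, Foxq1 and Foxf2 are tied to the brain form of the endothelium.

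Since 6 of the 38 are SOX or ETS factors and many of the others are known to need ETS sites, promoters were read for short cores of these families. RefSeq windows of GRCm38.p6 were at hand for 20 of the 38 genes, as 29 windows of 250 bases that end at an annotated start. The windows shown are those of Kdr, a receptor whose ABX and non-ABX libraries did not overlap at either stage, Tie1, with the second largest ABX difference, and Cd34, the most abundant gene by CPM, with the smallest. Capitals mark an ETS core, CAGGAA or CCGGAA, which here lies on the other strand and so reads TTCCTG or TTCCGG. The Kdr window is chr5:75978456-75978705, the Tie1 window chr4:118489850-118490099, both for genes on the minus strand, and the Cd34 window chr1:194938571-194938820 for a gene on the plus strand. All are written from 5′ to 3′ along the gene. The Kdr window lies inside the gene span given below, so its annotated start is not the outermost one of Kdr.
Kdr: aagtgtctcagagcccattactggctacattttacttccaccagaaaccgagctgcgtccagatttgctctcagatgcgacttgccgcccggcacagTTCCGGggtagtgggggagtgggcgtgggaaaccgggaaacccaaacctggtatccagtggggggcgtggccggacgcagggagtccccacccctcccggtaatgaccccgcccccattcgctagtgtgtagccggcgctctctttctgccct
Tie1: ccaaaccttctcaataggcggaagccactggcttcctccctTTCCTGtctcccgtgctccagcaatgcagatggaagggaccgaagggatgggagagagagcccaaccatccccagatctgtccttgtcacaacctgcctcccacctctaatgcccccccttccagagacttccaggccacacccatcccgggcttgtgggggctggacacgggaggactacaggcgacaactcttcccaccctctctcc
Cd34: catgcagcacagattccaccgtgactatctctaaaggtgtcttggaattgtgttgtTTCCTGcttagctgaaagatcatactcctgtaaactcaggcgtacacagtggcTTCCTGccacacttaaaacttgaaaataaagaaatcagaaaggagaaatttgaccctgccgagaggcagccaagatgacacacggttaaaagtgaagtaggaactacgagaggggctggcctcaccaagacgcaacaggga
The Kdr window holds 1 TTCCGG, the Tie1 window 1 TTCCTG and the Cd34 window 2 TTCCTG. Over both strands CAGGAA was present in 14 of the 29 windows (48.3%), against 25.7% of all 32851 windows. CCGGAA was present in 3 of the 29 windows and in 3952 of all windows. The SOX core AACAAT was present in 10.3% of the members' windows and 9.42% of all windows, and the LEF1 core CTTTGA in 10.3% and 13.8%. The 2 ETS cores share the letters GGAA, windows of a gene can overlap, and a match is a run of letters, not a site. The windows of Flt1 and Eng, which also fell with ABX, held none of these full cores, although both held the letters GGAA.

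Per kilobase of exon, the most abundant of the 38 was Itm2a, a small membrane protein, at 22.7 CPM per kb over all libraries (16.8 to 28.6). Cd34, a sialomucin of the vessel surface, followed at 19.7 CPM per kb (17.7 to 22.2), so the ranges of these 2 genes overlapped. Next came the GPI-anchored surface proteins Ly6a at 14.8 and Ly6c1 at 10.7 CPM per kb, then the sialomucin Podxl at 7.48 CPM per kb. Flt4, the receptor of the lymphatic growth factor Vegfc, was lowest at 0.403 CPM per kb. The transcription factors Foxq1, Lef1 and Sox17 were close to it, at 0.424, 0.434 and 0.545 CPM per kb. The levels of all 38 genes summed to between 540.9 and 801.6 CPM in a library.

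In libraries of ABX-treated mice the endothelial genes were lower as a set. Averaged over both stages, all 38 had a negative log2 fold change, while 47.5% of all genes tested did. The median of the 38 was -0.39, against 0.01 for all genes. Of the 38, 11 fell past a Benjamini-Hochberg adjusted p of 0.05 in edgeR's quasi-likelihood test and 0 rose, where 0.624% of all genes were called (0.464% as lower). The 11 were Podxl, Mmrn2, Flt1, Sox17, Kdr, Acvrl1, Eng, Tie1, Nos3, Ly6c1 and Ptprb. DESeq2 called 27 of the 38 (11.7% of all genes), and voom with quality weights 28 (5.36%). The genes had been chosen with earlier results of these data known, so these counts are descriptions of the list. The count rests on single libraries: it was 30 without pre-extinction ABX replicate 4 (18.2% of all genes were then called), 18 without pre-extinction non-ABX replicate 4 (6.2%) and 7 without pre-extinction non-ABX replicate 1 (0.177%). It was 2 without any one of pre-extinction ABX replicates 1, 2 and 3 or post-extinction ABX replicates 1 and 2 (0.0655% to 0.0894%). It was 3 without post-extinction non-ABX replicate 1 (0.0953%), and 1 without any one of post-extinction non-ABX replicates 2 and 3 or pre-extinction non-ABX replicate 3 (0.0236% to 0.0298%). The count stayed nearer to 11 in the remaining fits. Without post-extinction ABX replicate 3 it was 8 (0.381%), without replicate 4 of that group 12 (0.334%). Without post-extinction non-ABX replicate 4 it was 11 (0.518%). Podxl was called in all 15 of these fits, Mmrn2 in 12, Flt1 in 7, Eng, Nos3, Sox17 and Tie1 in 6 each, Kdr in 5, Acvrl1 and Ly6c1 in 4 each and Ptprb in 3. The highest adjusted p of these calls over the 15 fits was 0.132, and the median of the 38 stayed between -0.45 and -0.35.

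**Figure D1:**
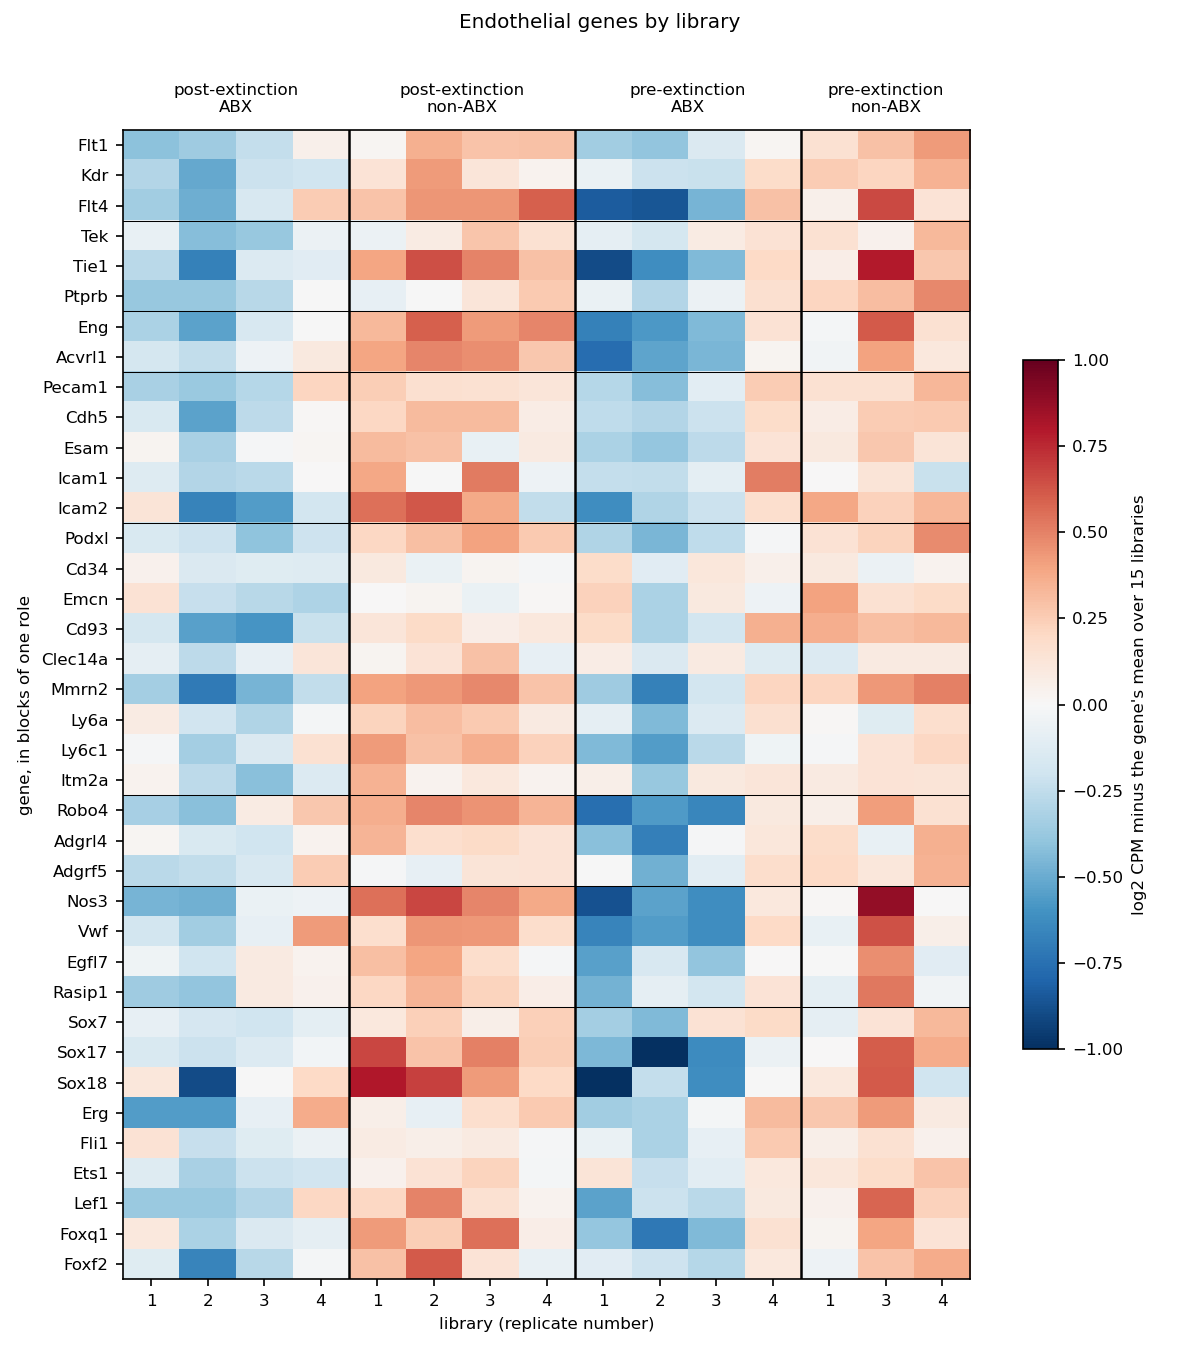
Level of each of the 38 endothelial genes (rows, grouped by role) in each of the 15 libraries (columns, by group), as log2 CPM minus the gene's mean over all libraries, with colours that saturate at a difference of 1. ABX libraries lie mostly below the mean and non-ABX libraries above it, with pre-extinction ABX replicate 4 among the libraries above the mean.

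The libraries themselves differed in how far the set was displaced. The median deviation of the 38 genes from their own means was -0.15, -0.35, -0.18 and 0.00 (log2) in post-extinction ABX replicates 1 to 4, against 0.23, 0.30, 0.27 and 0.13 in post-extinction non-ABX. Before extinction it was -0.34, -0.38, -0.20 and 0.14 in ABX replicates 1 to 4, against 0.07, 0.28 and 0.20 in non-ABX replicates 1, 3 and 4. Each ABX library except pre-extinction ABX replicate 4 thus lay below every non-ABX library, and that one lay within the non-ABX range. That library was the highest of its group for 34 of the 38 genes. It was below the lowest pre-extinction non-ABX library for 9 genes, while replicates 1, 2 and 3 were so for 33, 37 and 31. After extinction ABX replicates 1 to 4 were below the lowest non-ABX library for 31, 38, 34 and 24 genes.

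Among the VEGF receptors, Flt1, a decoy-like receptor that binds VEGF tightly, had 41, 42.5, 46.2 and 56.5 CPM in post-extinction ABX libraries, against 55.1, 69.6, 66.3 and 66.8 CPM in post-extinction non-ABX libraries. Before extinction Flt1 had 42.7, 41.3, 49.1 and 55.3 CPM with ABX and 60.3, 66.5 and 73.1 CPM without. The groups were apart before extinction and overlapped in 1 library after it. Flt1 (Entrez 14254, chromosome 5, 147561604 to 147726438) fell by 28.5% in the average (log2 fold change -0.48, SE 0.08, edgeR adjusted p = 0.0323). Kdr (Entrez 16542, chromosome 5, 75932827 to 75979072), the main signalling receptor, had 11.3, 9.69, 11.9 and 12 CPM in post-extinction ABX libraries, against 15.2, 18.5, 15 and 14.1 CPM in non-ABX ones. Before extinction Kdr had 13.2, 11.9, 11.8 and 15.7 CPM with ABX, and 16.5, 16 and 17.5 CPM without. No ABX library reached a non-ABX library of its stage, and Kdr fell by 24.9% (-0.41, SE 0.08, edgeR adjusted p = 0.0372). Flt4 averaged 2.82 ± 0.663 CPM after extinction with ABX and 4.28 ± 0.377 CPM without (SD, n = 4 each), and its averaged log2 fold change of -0.65 (SE 0.17) had an edgeR adjusted p of 0.0634. The 3 receptors together summed to 54.5 to 72.3 CPM in post-extinction ABX libraries and 74.1 to 92.4 CPM in post-extinction non-ABX libraries, which did not overlap. Before extinction the sums were 54.9 to 74.8 CPM with ABX and 80.1 to 94.1 CPM without.

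Tie1 (Entrez 21846, chromosome 4, 118471191 to 118489849), the partner receptor of Tek, had 6.6, 4.98, 7.23 and 7.37 CPM in post-extinction ABX libraries, against 10.5, 12.4, 11.3 and 9.76 CPM in non-ABX libraries. Before extinction Tie1 had 4.29, 5.17, 5.87 and 9.15 CPM with ABX and 8.36, 13.8 and 9.63 CPM without. The groups were apart after extinction, and before it the highest ABX library exceeded the lowest non-ABX one. Tie1 fell by 41.3% in the average (-0.77, SE 0.15, edgeR adjusted p = 0.0372). Ptprb (Entrez 19263, chromosome 10, 116275502 to 116389538), the endothelial receptor phosphatase, was close to Flt1 per length, at 4.22 and 4.11 CPM per kb. Ptprb had 42.6, 42.6, 45.8 and 55.2 CPM in post-extinction ABX libraries, against 52.4, 55.2, 60.2 and 66.5 CPM in non-ABX libraries. Before extinction Ptprb had 52.9, 45.3, 53.1 and 61.8 CPM with ABX, and 64.3, 68.8 and 77.4 CPM without. It fell by 22.3% (-0.36, SE 0.08, edgeR adjusted p = 0.0466), the weakest of the 11 calls, and lost the call when genes under a mean of 1 CPM were left out. Tek itself, the angiopoietin receptor, had -0.26 (SE 0.08, edgeR adjusted p = 0.0706).

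Both receptors of the BMP arm fell. Eng (Entrez 13805, chromosome 2, 32646595 to 32682669), the coreceptor endoglin, had 12.3, 10.6, 13.7 and 15.3 CPM in post-extinction ABX libraries, against 19.2, 23.2, 20.6 and 21.5 CPM in non-ABX libraries. Before extinction Eng had 9.6, 10.3, 11.3 and 16.9 CPM with ABX and 15.1, 23.4 and 17.1 CPM without. All libraries were apart after extinction, and 1 ABX library overlapped before it. Eng fell by 36.8% in the average (log2 fold change -0.66, SE 0.12, edgeR adjusted p = 0.0372). Acvrl1 (Entrez 11482, chromosome 15, 101128522 to 101145336), the type I receptor ALK1, had 10.6, 10.1, 11.5 and 12.8 CPM in post-extinction ABX libraries, against 15.7, 16.8, 16.5 and 14.4 CPM in non-ABX libraries. Before extinction Acvrl1 had 7.06, 8.29, 8.71 and 12.2 CPM with ABX and 11.7, 15.8 and 12.9 CPM without. Its pattern of overlap was that of Eng, and it fell by 30.8% (-0.53, SE 0.10, edgeR adjusted p = 0.0372). The library kit does not keep strand, and exons of both genes overlap an opposite-strand gene (Fpgs for Eng, Gm16031 for Acvrl1), whose reads cannot be told apart. The same holds for 9 more of the 38, Nos3 (Atg9b and Gm15587) and Sox17 (Gm37587) among those that fell, and Cd34, Icam1, Egfl7, Rasip1, Lef1, Foxq1 and Foxf2. Egfl7 and Rasip1 also overlap genes on their own strand.

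None of the 5 junction and adhesion genes passed the test, and all 5 had negative averaged values, with a median of -0.34. Pecam1, the homophilic adhesion molecule CD31, had 17, 16.5, 17.5 and 24.7 CPM in post-extinction ABX libraries, against 25.3, 23.8, 23.7 and 23.2 CPM in non-ABX libraries. Before extinction Pecam1 had 17.5, 15.9, 19.8 and 25.5 CPM with ABX and 23.6, 23.7 and 26.9 CPM without. In both stages replicate 4 of the ABX group stood among the non-ABX libraries and the other 3 below them, and the averaged value was -0.34 (SE 0.10, edgeR adjusted p = 0.0709). Cdh5, the VE-cadherin of the adherens junction, had -0.39 (adjusted p = 0.0539), Icam2 -0.59 (0.0634), Esam -0.30 (0.0704) and Icam1 -0.18 (0.349), all by edgeR.

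All 9 sialomucins and other surface proteins were below 0 in the average, with a median of -0.23, and 3 passed the adjusted threshold. Podxl (Entrez 27205, chromosome 6, 31519493 to 31563937), the sialomucin podocalyxin of the luminal face, had 36.1, 34.8, 30.4 and 34.8 CPM in post-extinction ABX libraries, against 46.4, 49.5, 53.2 and 48.1 CPM in non-ABX libraries. Before extinction Podxl had 32.5, 29.2, 33.6 and 39.9 CPM with ABX and 44.4, 46.8 and 55.8 CPM without. Every ABX library at both stages lay under every non-ABX library of either stage. Podxl fell by 31.0% (-0.53, SE 0.07, edgeR adjusted p = 0.0053), and it alone of the 38 kept its call in all 15 fits with a library left out (adjusted p from 4.83e-04 to 0.0219). Mmrn2 (Entrez 105450, chromosome 14, 34375504 to 34404287), a matrix protein that binds Cd93 and Clec14a, had 3.09, 2.39, 2.82 and 3.29 CPM in post-extinction ABX libraries, against 5.17, 5.28, 5.45 and 4.75 CPM in non-ABX libraries. Before extinction Mmrn2 had 3.05, 2.45, 3.44 and 4.54 CPM with ABX and 4.53, 5.26 and 5.53 CPM without, an overlap of 1 library by a narrow margin. Mmrn2 fell by 39.2% (-0.72, SE 0.11, edgeR adjusted p = 0.0176) and was called in 12 of the 15 fits, with a highest adjusted p of 0.0591. It missed the call without post-extinction non-ABX replicate 2 or 3 or pre-extinction non-ABX replicate 3.

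Ly6c1 (Entrez 17067, chromosome 15, 75044018 to 75048920) had 17.4, 13.9, 15.9 and 19.5 CPM in post-extinction ABX libraries, against 23.6, 21.5, 22.6 and 20.6 CPM in non-ABX libraries. Before extinction Ly6c1 had 13, 11.9, 14.6 and 17.1 CPM with ABX and 17.4, 19.4 and 20.3 CPM without. The groups did not overlap at either stage, and Ly6c1 fell by 25.0% (-0.41, SE 0.08, edgeR adjusted p = 0.0383); reads of its near-identical paralog Ly6c2 may be among its counts. Cd34 had the averaged value closest to 0 of the 38. It had 148, 129, 131 and 131 CPM in post-extinction ABX libraries, against 153, 137, 146 and 142 CPM in non-ABX libraries. Before extinction Cd34 had 162, 132, 155 and 148 CPM with ABX, and 153, 137 and 146 CPM without. The groups overlapped at both stages, and the averaged value was -0.03 (SE 0.05, edgeR adjusted p = 0.697). Itm2a, Ly6a, Cd93, Emcn and Clec14a lay between -0.39 and -0.11 in the average and did not pass.

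**Figure D2:**
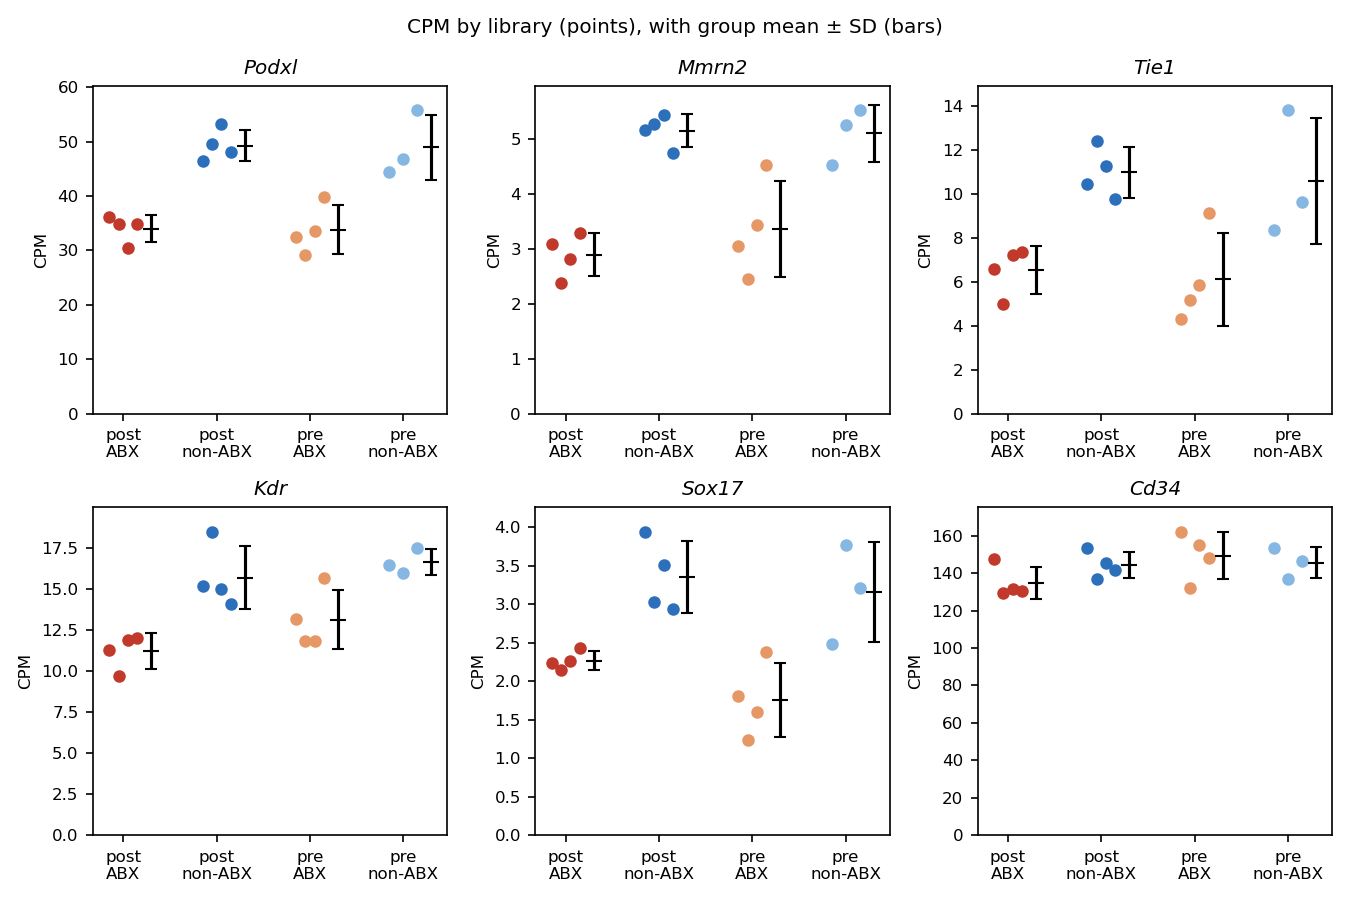
CPM of 6 endothelial genes in every library (points), with the mean ± SD of each group (bars), for post-extinction ABX, post-extinction non-ABX, pre-extinction ABX and pre-extinction non-ABX from left to right. Podxl, Kdr and Sox17 do not overlap between ABX and non-ABX libraries of a stage, Mmrn2 and Tie1 overlap in 1 pre-extinction ABX library, and Cd34 overlaps at both stages.

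The 3 receptors for guidance cues and of the adhesion GPCR family all had negative averages without a call. Adgrf5, the most abundant of them, had 46.8, 47.7, 50.5 and 67.5 CPM in post-extinction ABX libraries, against 56.1, 53.5, 61.8 and 62.3 CPM in non-ABX libraries. Before extinction Adgrf5 had 56.3, 40.5, 52.6 and 63.8 CPM with ABX and 65, 61.3 and 71.9 CPM without. Replicate 4 of the post-extinction ABX group was the highest library after extinction, and the averaged value was -0.22 (SE 0.09, edgeR adjusted p = 0.130). Robo4, an endothelial roundabout receptor, had -0.56 (adjusted p = 0.0552) and Adgrl4 -0.33 (0.0729) by edgeR.

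Nos3 (Entrez 18127, chromosome 5, 24364816 to 24384474), the endothelial nitric oxide synthase, had the largest averaged fall of the 38. It had 5.51, 5.45, 7.23 and 7.33 CPM in post-extinction ABX libraries, against 11.2, 12.1, 10.6 and 9.86 CPM in non-ABX libraries. Before extinction Nos3 had 4.16, 5.24, 4.93 and 8.16 CPM with ABX and 7.67, 14 and 7.61 CPM without. The groups were apart after extinction only, since 1 ABX library passed 2 non-ABX ones before it. Nos3 fell by 41.9% (-0.78, SE 0.15, edgeR adjusted p = 0.0372). Egfl7, a secreted matrix protein and the most abundant of its role, had 21, 18.8, 23 and 22.2 CPM in post-extinction ABX libraries, against 26.5, 28.3, 24.4 and 21.4 CPM in non-ABX libraries. Before extinction Egfl7 had 14.8, 19.3, 16.4 and 21.6 CPM with ABX and 21.5, 29.7 and 20 CPM without. Its groups overlapped at both stages and its averaged value was -0.32 (SE 0.10, edgeR adjusted p = 0.0727). Vwf, the clotting factor carrier stored in endothelial granules, had -0.46 (adjusted p = 0.0781), and Rasip1, a Rap1 effector in lumen formation, -0.32 (0.0957).

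All 9 transcription factors were below 0 in the average, with a median of -0.42, and 1 passed the adjusted threshold. Sox17 (Entrez 20671, chromosome 1, 4490928 to 4497426) had 2.23, 2.14, 2.26 and 2.44 CPM in post-extinction ABX libraries, against 3.94, 3.02, 3.52 and 2.94 CPM in non-ABX libraries. Before extinction Sox17 had 1.81, 1.23, 1.6 and 2.38 CPM with ABX, and 2.48, 3.78 and 3.21 CPM without. It did not overlap at either stage and fell by 38.7% (-0.70, SE 0.13, edgeR adjusted p = 0.0361). Ets1, the most abundant factor by CPM, had 15.4, 13.4, 14.5 and 14.7 CPM in post-extinction ABX libraries, against 17.4, 18.6, 19.6 and 16.6 CPM in non-ABX libraries. Before extinction Ets1 had 18.4, 14.3, 15.6 and 18.1 CPM with ABX and 18.2, 19.1 and 20.5 CPM without. It was apart after extinction and overlapped before it, and had an averaged value of -0.27 (SE 0.06, edgeR adjusted p = 0.0602). The other SOX factors had -0.64 (Sox18, edgeR adjusted p = 0.0683) and -0.26 (Sox7, 0.122). The ETS factors Erg and Fli1 had -0.30 (0.162) and -0.12 (0.354). The factors of brain vessels had -0.46 (Lef1, 0.0634), -0.47 (Foxq1, 0.0634) and -0.42 (Foxf2, 0.0683).

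**Figure D3:**
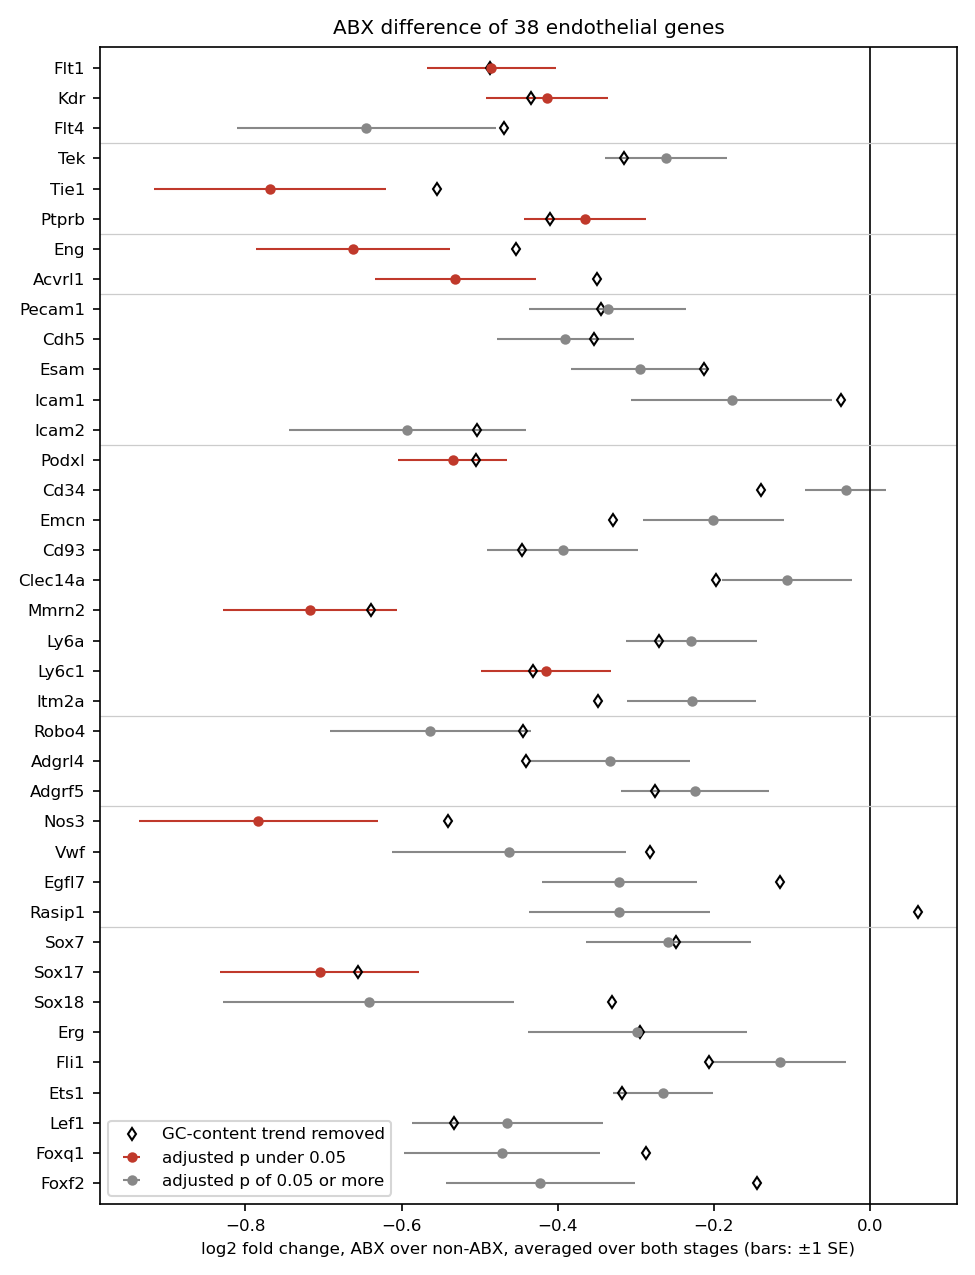
Averaged log2 fold change of ABX over non-ABX for the 38 endothelial genes, with bars of 1 standard error, grouped by role; open diamonds are the values with the GC-content trend removed. All 38 filled points lie below 0, from -0.78 for Nos3 to -0.03 for Cd34, and the 11 genes past the threshold are marked.

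At each stage alone none of the 38 passed the adjusted threshold, where 0.0178% of all genes did after extinction and 0.00595% before it. At an unadjusted p under 0.05, 27 of the 38 were lower after extinction and 25 before it, where 6.83% and 11.4% of all genes were lower. After extinction all 38 had negative values (48.4% of all genes), with a median of -0.40, and before it 36 of 38 (48.5% of all genes), with a median of -0.37. Cd34 and Icam1 were the 2 above 0 before extinction, at 0.04 each, so 36 of 38 were below 0 at both stages (36.9% of all genes). ABX libraries lay entirely below non-ABX libraries for 18 genes after extinction and 7 before it, where 6.36% and 3.14% of all genes did so. They lay entirely above for 0 of the 38 at either stage, where 4.74% of all genes after extinction and 3.62% before it did. Podxl, Kdr, Sox17 and Ly6c1 did so at both stages, 4 of the 38, where 0.773% of all genes did.

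The calls at one stage changed with the tool and with single libraries. DESeq2 called 9 genes after extinction (1.06% of all genes) and 2 before it (0.0892%), and voom with quality weights called 14 (1.82%) and 0 (0.00595%). Without pre-extinction ABX replicate 4, edgeR called 2 genes after extinction (0.0774% of all genes) and 7 before it (0.167%), and without pre-extinction ABX replicate 2 it called 1 after extinction (0.0298%). With the compared groups alone it called 5 after extinction (0.195%) and 0 before it (0.00606%). With the replicate block and GC removal together it called 17 (2.5%) and 2 (0.0297%). Across the 38 genes the 2 stages, which share no library, gave log2 fold changes with a Pearson correlation of 0.75 (Spearman 0.73, n = 38 genes). The same correlation over all 16816 genes was 0.58 (Spearman 0.63). Genes of a library share its depth and composition, so this is a description.

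**Figure D4:**
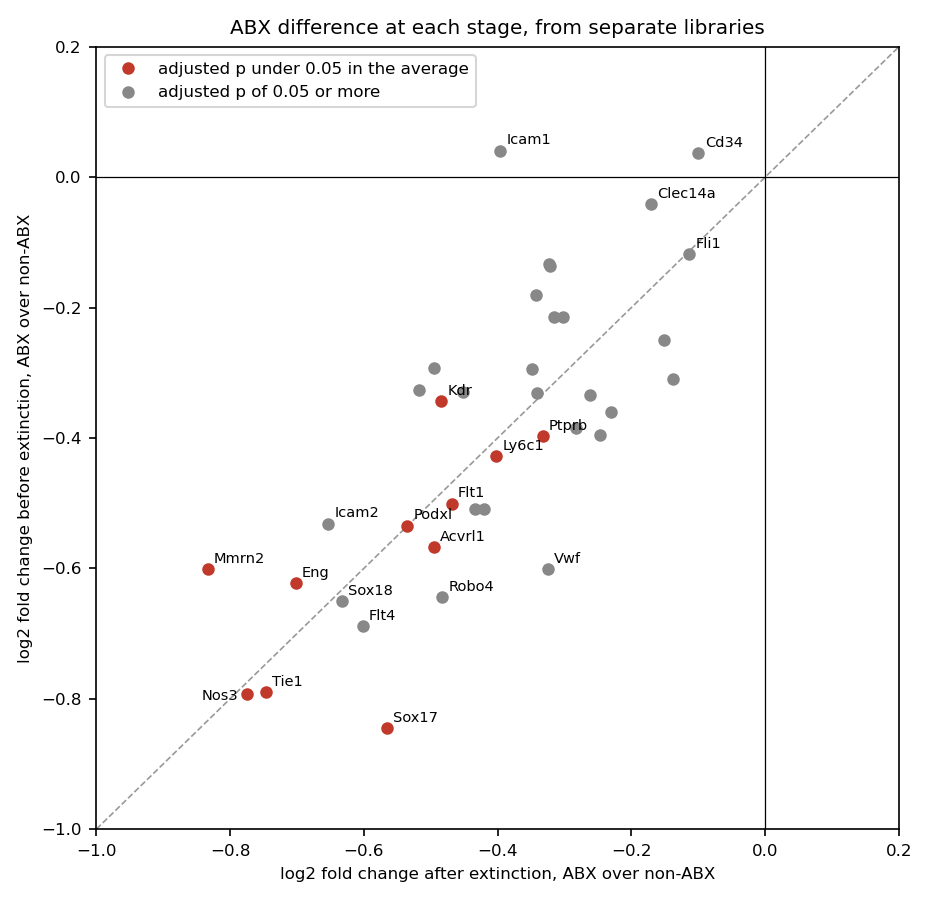
Log2 fold change of ABX over non-ABX after extinction (x axis) and before extinction (y axis) for each of the 38 endothelial genes, with the line of equal values. Genes with an adjusted p under 0.05 in the average lie among the others: Ptprb is at -0.33 and -0.40, while Flt4, which missed the threshold, is further to the lower left at -0.60 and -0.69. Cd34 and Icam1 alone lie above 0 before extinction.

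The GC content of transcripts moved with the ABX difference in all genes. Over 15332 genes with a known GC content, the averaged log2 fold change had a Pearson correlation of -0.60 with GC percent (Spearman -0.66), and over the 38 endothelial genes -0.62 (Spearman -0.64). The median of all genes was 0.12 under 45% GC and -0.34 over 60% GC. The median of the endothelial genes lay below that of all genes in each bin of GC content, at -0.16 (6 genes) against 0.12 under 45% GC, -0.36 (9 genes) against 0.05 at 45 to 50%, -0.48 (11 genes) against -0.05 at 50 to 55%, -0.50 (10 genes) against -0.20 at 55 to 60%, and -0.48 (2 genes) against -0.34 over 60%. The tilt of a library (genes of at least 60% GC minus genes under 45%, log2) ranged from -0.28 to 0.26 in post-extinction ABX and 0.12 to 0.59 in post-extinction non-ABX libraries. Before extinction it ranged from -0.86 to 0.07 with ABX and from -0.28 to 0.73 without.

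With the GC trend of each library removed, 22 of the 38 fell and 0 rose, where 3.84% of all genes were called, and the 22 include the same 11. The median was then -0.35, and the correlation with GC percent over the 38 was 0.08. Removal made the fall smaller for GC-rich genes, to -0.54 for Nos3, -0.55 for Tie1 and -0.45 for Eng. It left Podxl at -0.50, Mmrn2 at -0.64 and Sox17 at -0.66. Cd34, a GC-poor gene, had -0.14 (edgeR adjusted p = 0.0805), and Rasip1, the most GC-rich, was the one gene above 0, at 0.06 (adjusted p = 0.548). After extinction alone 5 of the 38 fell under this correction (0.244% of all genes were called), and before it 0 (0.00595%).

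**Figure D5:**
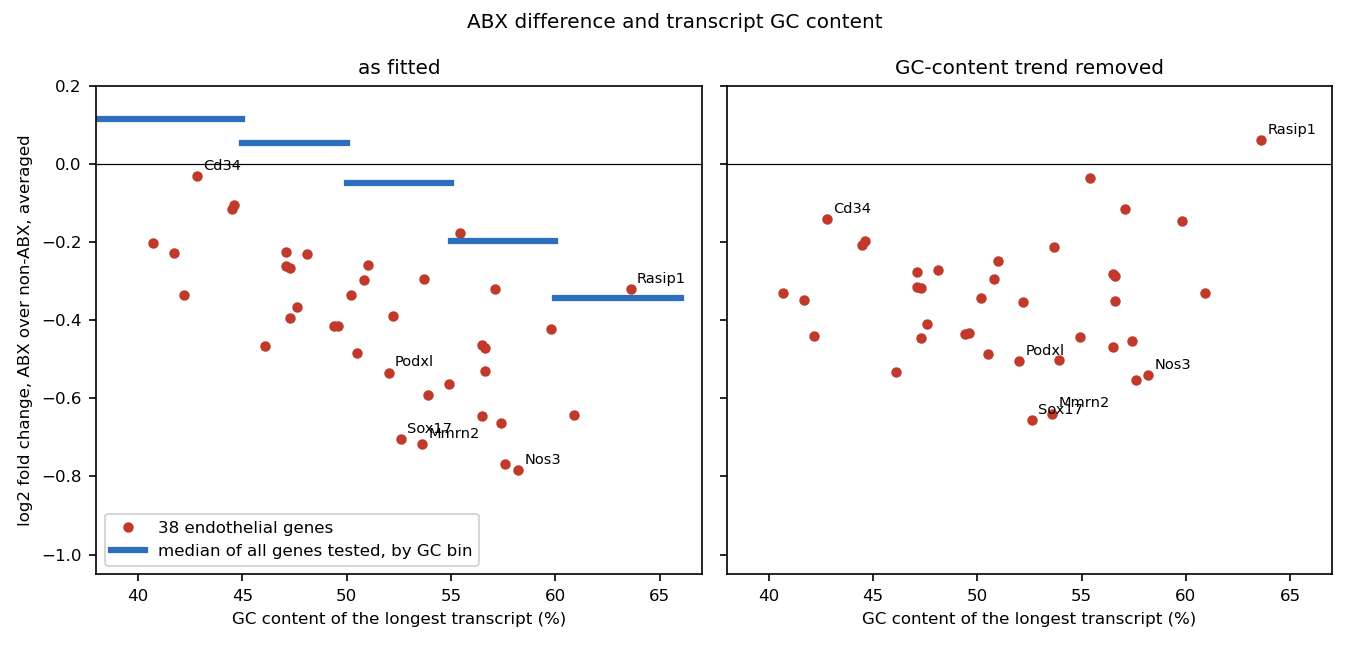
Averaged log2 fold change of ABX over non-ABX against the GC content of each endothelial gene's longest transcript (points), as fitted on the left and with the GC trend removed on the right. Blue bars on the left are medians of all genes in bins of GC content, and the points lie under the bar of their bin except for Icam1 and Rasip1, which lie just above it.

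Genes of the pathways that these receptors belong to were counted in the same averaged contrast. Of 11 VEGF and angiopoietin ligands and coreceptors, 6 were below 0 and none was called, with a median of -0.03. The coreceptor Nrp1 had -0.03 and the ligand Vegfa -0.16, while Vegfd, a ligand of Flt4, had 0.61 (edgeR adjusted p = 0.0609). Of 17 TGF-beta and BMP genes, 13 were below 0 and none was called, with a median of -0.07; the type II receptor Bmpr2 and the target Id2 had -0.04 each, and the inhibitor Smad6 -0.87 (0.0634). Of 13 Notch genes, 10 were below 0 and none was called, with a median of -0.11; Notch2 had -0.05, the target Hey1 -0.11 and Notch3, a mural cell receptor, -0.42 (0.0634).

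Of 15 Wnt and Norrin genes, 10 were below 0 and 2 fell, with a median of -0.19. The 2 are inhibitors induced by the pathway, Apcdd1 (-0.42, edgeR adjusted p = 0.0336) and Nkd1 (-0.36, 0.0432), while the coreceptor Lrp6 had 0.05 and beta-catenin, Ctnnb1, 0.02. Apcdd1 averaged 19.5 ± 1.42 CPM after extinction with ABX and 26.3 ± 1.40 CPM without (SD, n = 4 each). Of 15 junction and lumen partners of Cdh5 and Rasip1, 7 were below 0 and 1 fell, with a median of 0.01. It was Heg1, a transmembrane partner of the junction protein Krit1 (-0.36, 0.0372), while S1pr1 had 0.06 and Ptk2 -0.06. With the GC trend removed the list medians were 0.07 for VEGF and angiopoietin genes and -0.05 for junction and lumen partners, both turned in sign, and -0.11 for TGF-beta and BMP, -0.05 for Notch and -0.10 for Wnt and Norrin genes. These lists and the next were drawn up with earlier results known.

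Other vascular genes differed by group. Of 20 barrier transporter and tight junction genes, 16 were below 0 and 3 fell, with a median of -0.15. The 3 were the amino acid transporters Slc7a5 (-0.34, edgeR adjusted p = 0.0372) and Slc38a5 (-0.47, 0.0433) and the junction protein Cgnl1 (-0.38, 0.0442), while Tfrc had 0.09 and Tjp1 -0.03. Of 8 arterial genes, 7 were below 0 and Sema3g fell (-0.75, 0.0491), with a median of -0.26; the abundant Efnb2 had -0.04 and Stmn2, also a neuron gene, 0.05. Of 8 venous genes, 3 were below 0 and none was called, with a median of 0.10; Vcam1 had 0.07, Ackr1 -0.06 and Ephb4 -0.50 (0.0616). With the GC trend removed the venous median was 0.00, the arterial -0.27 and the barrier median -0.15.

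Some markers of mural cells also fell. All 10 smooth muscle genes were below 0 and 4 fell, with a median of -0.49. The 4, named here because they passed, were the contractile genes Acta2 (-0.90, edgeR adjusted p = 0.0313), Tagln (-0.54, 0.0361), Myh11 (-0.77, 0.0372) and Des (-0.83, 0.0372). The summed level of the list was 37.6 to 54.8 CPM in post-extinction ABX and 56.9 to 66.9 CPM in post-extinction non-ABX libraries. Before extinction it was 35.4 to 52.2 CPM with ABX and 52.9 to 67.5 CPM without. Of 11 pericyte genes, 9 were below 0 and Ndufa4l2, likewise named because it passed, fell (-0.70, 0.0452), with a median of -0.20. With the GC trend removed the median was -0.41 for smooth muscle and -0.11 for pericyte genes. Their sum was 168.1 to 205.3 CPM in post-extinction ABX and 205.1 to 235.4 CPM in post-extinction non-ABX libraries, and 163.8 to 212.7 CPM with ABX and 197.0 to 230.8 CPM without before extinction. Fibroblast genes had a median of -0.06 (7 of 10 below 0, none called), with sums of 218.6 to 261.3 CPM and 208.0 to 301.9 CPM with and without ABX after extinction and 220.3 to 286.1 CPM and 207.9 to 259.5 CPM with and without ABX before it. The part of mural cell content in the endothelial result was not tested.

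Neuron genes had a median of 0.02, astrocyte genes 0.05, microglia genes -0.14 and oligodendrocyte genes -0.14, with no call in any of these lists of 10. With the GC trend removed these medians were -0.04, 0.04, 0.00 and 0.03, so those of neurons, microglia and oligodendrocytes turned in sign. Neuron sums were 14300 to 14680 CPM in post-extinction ABX and 14840 to 15080 CPM in post-extinction non-ABX libraries, and 14550 to 14980 CPM with ABX and 14800 to 15300 CPM without before extinction. White cell genes were above 0 in 6 of 6 (median 0.88) and red cell genes in 2 of 2 (0.93), with no call. White cell sums were 5.19 to 14.4 CPM in post-extinction ABX and 4.12 to 5.71 CPM in post-extinction non-ABX libraries, and 5.19 to 8.30 CPM with ABX and 4.19 to 5.28 CPM without before extinction. Red cell sums stayed at or under 2.68 CPM in every library. Choroid plexus and ependymal genes had a median of -0.28 (3 of 5 below 0, none called), with a sum of 18.5 CPM in post-extinction ABX replicate 1 and at most 7.32 CPM in the other libraries. That library also had the highest white cell sum, and without it the averaged median of the endothelial genes was -0.41, with 2 of them called. The part of these cells in the endothelial result was not tested.

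Between the stages no endothelial gene passed the test by edgeR. In ABX libraries none of the 38 was called by edgeR, DESeq2 or voom, where 0.0951%, 1.71% and 2.77% of all genes were. At an unadjusted p under 0.05 there were 4 (16.6% of all genes), 3 of them lower (8.97% of all genes). Of the 38, 21 were below 0 (49.0% of all genes), with a median of -0.01, and 0 lay entirely below the pre-extinction libraries (2.78% of all genes). The smallest p was that of Cd93, a C-type lectin receptor, with 7.07, 5.47, 5.28 and 6.81 CPM in post-extinction ABX libraries, against 9.09, 6.39, 7.02 and 10.2 CPM in pre-extinction ABX libraries. The groups overlapped, and the value was -0.41 (SE 0.13, edgeR adjusted p = 0.196). Ets1 was next, at -0.20 (adjusted p = 0.285). In non-ABX libraries none of the 38 was called by edgeR or DESeq2, where 0 and 0.113% of all genes were. At an unadjusted p under 0.05 there was 1 (4.94% of all genes), and it was lower (3.43% of all genes). Of the 38, 14 were below 0 (50.9% of all genes), with a median of 0.04, and Cd93 and Emcn lay entirely below the pre-extinction libraries (3.57% of all genes). Ly6c1 lay entirely above them (2.33% of all genes). Ptprb had -0.26 (SE 0.11, edgeR adjusted p = 0.896), and so did Emcn, the sialomucin endomucin (SE 0.13, adjusted p = 0.896). Emcn had 5.98, 6.09, 5.71 and 6.02 CPM in post-extinction non-ABX libraries, against 7.89, 6.62 and 6.81 CPM in pre-extinction ones, with no overlap. Voom with quality weights called 6 of the 38 there, along with 3191 of all genes (19.0%). Of the 6, 1 was lower and 5 were higher after extinction, and the median of the 38 by voom was 0.13.

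A test of whether the ABX difference itself depended on stage called none of the 38 by edgeR, and 0 of all 16816 genes. None of the 38 had an unadjusted p under 0.05, where 2.06% of all genes had such a p (0.767% as lower). Of the 38, 18 were below 0 (46.3% of all genes), and the median interaction was 0.01. The smallest p was that of Icam1, the leukocyte adhesion molecule, with 2.49, 2.22, 2.26 and 2.73 CPM in post-extinction ABX libraries, against 3.55, 2.7, 3.9 and 2.62 CPM in non-ABX libraries. Before extinction Icam1 had 2.3, 2.29, 2.54 and 3.87 CPM with ABX and 2.72, 2.96 and 2.32 CPM without. The interaction was -0.44 (SE 0.26, edgeR unadjusted p = 0.11) for Icam1 and -0.14 (SE 0.10, unadjusted p = 0.204) for Cd34. DESeq2, voom and each fit with a library left out also called 0 of the 38 for the interaction. Of all genes, DESeq2 called 0.0238%, while voom and each fit with a library left out called 0.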

How the data were processed

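Raw counts per Entrez gene for 15 libraries were deposited by the authors, with no normalization. The submitters' processing notes name the aligner STAR 2.3.0, CASAVA 1.8.2 and the build mm10; no counting program or annotation is named in the sources used here. RefSeq (GRCm38.p6) gave symbols for 25275 of 27179 identifiers (99.7% of counts) and the gene positions. GENCODE (GRCm38) gave exon lengths, exon overlaps and GC content.

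The counts were analysed with edgeR 4.0.16 in R 4.3.3: filterByExpr (minimum count 10, minimum total 15), TMM factors (0.969 to 1.03), 4 group means and two-sided quasi-likelihood tests on all libraries, with Benjamini-Hochberg adjustment over 16816 genes and calls at 0.05. Standard errors are the fold change over the square root of F. The pipeline was tested on simulated data, in which genes were drawn independently and no GC trend or library-wide shift was built in. Alternatives were DESeq2 1.42.0, voom with quality weights (limma 3.58.1), other scaling and filters, the compared groups alone, a replicate block, removal of each library's GC trend (spline, 5 degrees of freedom, 91.2% of genes) and each library left out.

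Genes with values per library were, by rule, the most abundant of each role, the 8 smallest p and all calls in the average, and the 2 smallest p in each stage contrast and the interaction. Members and lists were chosen with earlier results of these data known.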

Additional observations from a re-analysis of the deposited data

Results flagged for a closer look

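In 114 groups of 4 libraries, 38 genes in each of 3 groups, 9 held a library that stood apart from the other 3 by Dixon's criterion at the 95% level (gap over range above 0.829). Chance flags about 1 in 20 such groups when they are independent. Here the 38 genes of a group share its 4 libraries, so that rate is no yardstick for the 9.

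Of the 9, 3 were in pre-extinction ABX replicate 4 and were high: Cdh5 at 15.2 CPM, where the nearest other library had 11.6 CPM, Icam1 at 3.87 CPM (nearest 2.54) and Vwf at 17.1 CPM (nearest 10.1). Post-extinction ABX replicate 4 was high for Pecam1 at 24.7 CPM (nearest 17.5) and for Lef1 at 4.29 CPM (nearest 3.04). Post-extinction ABX replicate 1 was high for Cd34 at 148 CPM (nearest 131) and for Emcn at 6.62 CPM (nearest 5.08). The 2 low values were Esam at 12.6 CPM in post-extinction ABX replicate 2 (nearest 15.7) and Itm2a at 30.1 CPM in pre-extinction ABX replicate 2 (nearest 40.9). All 9 lay in ABX libraries, but 2 of the 3 groups looked at were ABX groups. The 3 libraries of the pre-extinction non-ABX group are too few for this criterion.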

How the results depend on the processing

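The count of endothelial genes called with ABX depended on the processing more than their median did. The median of the ABX difference stayed below 0 after extinction, before it and in the average, and moved by less than the spread between libraries (SD 0.16) under each alternative run. Medians near 0 changed sign: in non-ABX libraries that of the stage difference was 0.04, against -0.01 with the GC trend removed and -0.04 without pre-extinction non-ABX replicate 1. With a library left out it ran from -0.09 to 0.09 for the stage difference in ABX libraries and from -0.09 to 0.12 for the interaction. Rasip1 in the average turned to 0.06 with the GC trend removed. In the average, 11 genes were called by edgeR, 27 by DESeq2, 28 by voom with quality weights and 17 with a replicate block. With the GC trend removed 22 were called (3.84% of all genes), and 26 with block and GC removal (10.5%). The 11 were among each of these. RLE scaling, no filter and a mean of at least 1 CPM gave 11, 13 and 10 (0.553%, 0.564% and 0.624% of all genes). After extinction the counts were 9 by DESeq2, 14 by voom, 5 with the compared groups alone, 5 with the GC trend removed and 17 with block and GC removal, against 0. Before extinction they were 2 by DESeq2 and 2 with block and GC removal, against 0. Between stages in non-ABX libraries voom called 6 and edgeR 0. With each library left out, the counts ranged from 1 to 30 in the average, 0 to 2 after extinction and 0 to 7 before it. The cause of these shifts was not tested. Over all genes, the averaged contrast gave 105 calls by edgeR, 1963 by DESeq2, 902 by voom, 666 with the block and 645 with the GC trend removed, and 4 to 3057 with a library left out. The labels do not say whether replicate numbers pair the samples. Of 21 same-numbered pairs, 8 had a correlation of deviations over 0.1 (range -0.49 to 0.37). Differently numbered pairs ranged from -0.52 to 0.58. Libraries also differ in GC tilt, so these correlations cannot settle whether samples were paired. The lowest count of any of the 38 in a library was 42, and standard errors differed between genes: Sox18 missed the call at -0.64 (SE 0.19), while Ptprb was called at -0.36 (SE 0.08).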
